A study of Mus musculus with 3 samples.

Results

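The cholesterol synthesis and uptake genes described here are Hmgcs1, Idi1, Fdft1, Sqle, Lss, Srebf2 and Insig1. These 7 genes were taken by name, with earlier results of these data known. Transcript identifiers in the deposited tables matched 5 of them, Fdft1, Sqle, Lss, Srebf2 and Insig1, out of 16604 genes measured. Hmgcs1 and Idi1 had no matched transcript and were not analysed here. The 5 measured genes are 3 enzymes and 2 regulators of synthesis, and none is itself an uptake receptor, so uptake is covered below by a separate list. All 5 passed the minimum level of 1 CPM (reads per 1000000 reads) in at least 1 library.

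Brain vessels of mice aged 3 months gave RNA for 3 libraries, 1 per group. The first group was hGFAP-Cre/Cx43fl/fl, labelled Cx43 -/-, on a C57BL6-BALB/c background. In it, the human GFAP promoter drives a Cre recombinase that deletes the floxed connexin 43 gene, Gja1, in astroglia. Which other cells carry the deletion was not tested. The others were WT mice of the same C57BL6-BALB/c background and WT C57BL6 mice, and no Cre or floxed allele is named for either. The labels do not say whether a library held 1 animal or a pool. Polyadenylated RNA was read without strand, and every value below compares libraries, with no replicate check and no test. Intervals cover counting error only.

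Cholesterol cannot cross the blood-brain barrier in lipoproteins, so the brain makes its own, with astrocytes and oligodendrocytes as known producers. Acetyl units are built into mevalonate and then farnesyl pyrophosphate, which the squalene steps and the post-lanosterol steps turn into cholesterol. The transcription factor SREBP2 drives the genes of the pathway when sterols in the endoplasmic reticulum run low, and INSIG proteins hold it back when sterols are plentiful.

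The Cx43-deleted library held 54975610 reads, the WT C57BL6-BALB/c library 21170766 and the WT C57BL6 library 24830975. Gja1 was at 48.0 CPM in the Cx43-deleted library, against 202 CPM in each WT library. None of the 15 endothelial markers on the list used was at 0 in any library. Transcripts of other brain cells were present too: over all their transcripts, the 15 neuron markers summed to 10760, 10596 and 7571 CPM and the 15 oligodendrocyte markers to 13893, 14261 and 17780 CPM in Cx43-deleted, in WT C57BL6-BALB/c and lastly in WT C57BL6. The highest single oligodendrocyte marker was at 11585, 12015 and 15382 CPM in these libraries, so 1 gene made up most of each oligodendrocyte sum. In such bulk RNA, fewer cells of a type and less RNA per cell cannot be told apart.

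Relative to both WT libraries, the Cx43-deleted library had lower levels of 4 of the 5 measured sterol genes (Sqle, Insig1, Srebf2 and Fdft1) and a higher level of Lss. Of all genes measured, 35.6% had their level below that of both WT libraries and 33.2% above. Against the WT library of the same background no difference reached 1.5-fold. Against WT C57BL6, Insig1 and Sqle did, both lower.

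Among the measured sterol genes, the squalene enzymes come first in the pathway. Fdft1 (ENSMUSG00000021273; GRCm38 chromosome 14, 63145150 to 63179578, minus strand) encodes squalene synthase, the first enzyme committed to sterols. It had 505 reads in the Cx43-deleted library, 214 reads in WT C57BL6-BALB/c and 302 reads in WT C57BL6, which is 9.41, 10.1 and 11.9 CPM. It was lowest in the Cx43-deleted library, by 1.07-fold (0.909 to 1.26, which includes no difference) from WT C57BL6-BALB/c and by 1.26-fold (1.09 to 1.46) from WT C57BL6. The longer GRCm38 model of its transcript shares 771 of its 2860 bases with exons of Ctsb on the opposite strand. The deposited Fdft1 transcript is 1665 bases long, and whether it holds those bases was not tested. Ctsb, a lysosomal protease named here for this overlap after its values were seen, was at 274, 313 and 462 CPM, in the same order of libraries.

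Sqle (ENSMUSG00000022351; chromosome 15, 59315077 to 59331192, plus strand) encodes squalene epoxidase, an oxygen-dependent step. Its most abundant transcript had 1797 reads in the Cx43-deleted library, 848 reads in WT C57BL6-BALB/c and 1291 reads in WT C57BL6, or 33.5, 40.0 and 50.8 CPM. The 3 intervals of these levels did not overlap, and the Cx43-deleted library was lowest. The level was lower than WT C57BL6-BALB/c by 1.19-fold (1.10 to 1.30) and lower than WT C57BL6 by 1.52-fold (1.41 to 1.63). The other deposited transcript of Sqle gave nearly the same reads, at 1744, 816 and 1249. A read on sequence shared by both transcripts appears to be counted on each, which was not tested.

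Lss (ENSMUSG00000033105; chromosome 10, 76531588 to 76557138, plus strand) encodes lanosterol synthase, which closes the sterol rings of the product of squalene epoxidase. It had 2539 reads in the Cx43-deleted library, 902 reads in WT C57BL6-BALB/c and 1016 reads in WT C57BL6, or 47.3, 42.5 and 40.0 CPM. Here the Cx43-deleted library was highest, the reverse of the other enzymes, by 1.11-fold (1.03 to 1.20) over WT C57BL6-BALB/c and 1.18-fold (1.10 to 1.27) over WT C57BL6. The Lss model shares 8.16% of its bases with 4930483K19Rik.

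Among the regulators, Srebf2 (ENSMUSG00000022463; chromosome 15, 82147181 to 82205379, plus strand) encodes SREBP2 itself. It had 9927 reads in the Cx43-deleted library, 4498 reads in WT C57BL6-BALB/c and 5977 reads in WT C57BL6, or 185, 212 and 235 CPM, the deepest read of the 5 genes. It was lower than WT C57BL6-BALB/c by 1.15-fold (1.11 to 1.19) and lower than WT C57BL6 by 1.27-fold (1.23 to 1.31). Insig1 (ENSMUSG00000045294; chromosome 5, 28071363 to 28078662, plus strand) encodes an anchor that retains the SREBP escort protein SCAP in the endoplasmic reticulum and is itself an SREBP target. It had 557 reads in the Cx43-deleted library, 254 reads in WT C57BL6-BALB/c and 503 reads in WT C57BL6, or 10.4, 11.98 and 19.8 CPM. The first 2 libraries lay close together and WT C57BL6 stood above both. The difference of Insig1 from WT C57BL6-BALB/c was 1.15-fold (0.991 to 1.34, which includes no difference), and from WT C57BL6 it was 1.91-fold (1.69 to 2.15), both towards lower levels.

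**Figure D1:**
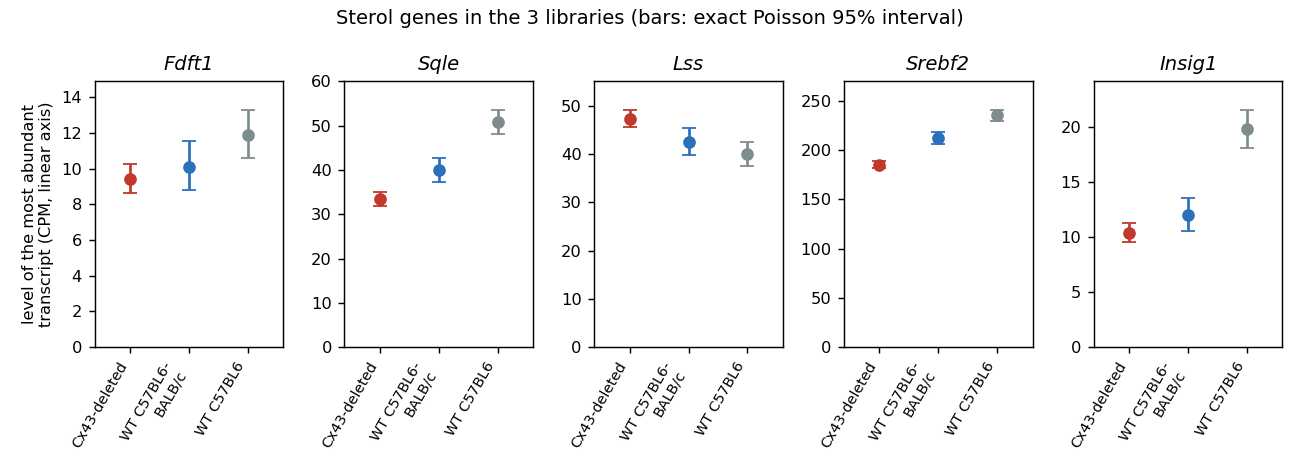
Level (CPM, linear axis from 0) of the most abundant transcript of each measured sterol gene in Cx43-deleted, in WT C57BL6-BALB/c and lastly in WT C57BL6; bars are exact Poisson 95% intervals of 1 library each. Fdft1, Sqle, Srebf2 and Insig1 were lowest in the Cx43-deleted library, and Lss was highest there, at 47.3 CPM.

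On the log2 scale, with 0.5 CPM added to the summed transcripts of a gene, the ratio of the Cx43-deleted library to WT C57BL6-BALB/c was −0.25 for Sqle, −0.20 for Srebf2, −0.20 for Insig1, −0.10 for Fdft1 and 0.15 for Lss. The median of the 5 was −0.20, beside 0.0030 over all genes measured. None was 1.5-fold lower or higher, where 4.06% of all genes were that much lower and 3.17% that much higher. Each single value lay well inside the spread of other genes: 16.8% of genes had a lower ratio than Sqle, and 21.4% a lower ratio than Srebf2.

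Against WT C57BL6 the ratios were −0.90 for Insig1, −0.60 for Sqle, −0.35 for Srebf2, −0.32 for Fdft1 and 0.24 for Lss. Their median was −0.35, beside −0.03 over all genes. Insig1 and Sqle were at least 1.5-fold lower, 2 of 5, where 12.1% of all genes were, and none was that much higher, where 8.83% were. Only 4.20% of genes had a lower ratio than Insig1. The Sqle value lay close to the threshold, and with median-of-ratios scaling it was −0.57, short of 1.5-fold.

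The WT libraries also differed from each other without the deletion. The ratio of WT C57BL6-BALB/c to WT C57BL6 was −0.70 for Insig1, −0.35 for Sqle, −0.23 for Fdft1, −0.15 for Srebf2 and 0.09 for Lss, with a median of −0.23 beside −0.03 over all genes. Insig1 was 1.65-fold lower (1.42 to 1.93), the only member past 1.5-fold, where 9.01% of all genes were. The Cx43-deleted and WT C57BL6-BALB/c libraries share their background, and WT C57BL6 is the common denominator of these ratios and of those in the paragraph before, so they are not separate evidence. The 4 genes below both WT libraries were all lowest in Cx43-deleted, next in WT C57BL6-BALB/c and highest in WT C57BL6, as were 26.4% of all genes.

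Per kilobase of the most abundant transcript, which allows genes to be compared, Srebf2 led in each library, at 37.1, 42.5 and 47.2 CPM per kb in Cx43-deleted, in WT C57BL6-BALB/c and lastly in WT C57BL6. Sqle followed at 12.3, 14.7 and 18.6, and Lss at 10.2, 9.13 and 8.59. Fdft1 was at 5.65, 6.06 and 7.14 CPM per kb and Insig1 at 3.86, 4.45 and 7.35. In WT C57BL6 the order of the last pair could not be told, since 6.36 to 7.99 for Fdft1 and 6.73 to 8.03 for Insig1 overlap. In the other libraries Fdft1 lay above Insig1 with intervals that did not overlap.

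Ratios between genes of the same library do not depend on how libraries are scaled. Squalene epoxidase and lanosterol synthase carry out successive steps, and Sqle over Lss, in reads per kb, was 1.21 (1.14 to 1.28) in the Cx43-deleted library, 1.61 (1.46 to 1.77) in WT C57BL6-BALB/c and 2.17 (2.00 to 2.36) in WT C57BL6. All 3 intervals were apart. Fdft1 over Lss was 0.556 (0.505 to 0.612), 0.664 (0.569 to 0.771) and 0.832 (0.729 to 0.946) in the same libraries, so the Cx43-deleted interval overlapped that of WT C57BL6-BALB/c and lay below that of WT C57BL6. Sqle over Fdft1 was 2.17 (1.97 to 2.40), 2.42 (2.08 to 2.82) and 2.61 (2.30 to 2.97), all overlapping. Insig1 over Srebf2 was 0.104 (0.0953 to 0.113) in the Cx43-deleted library and 0.105 (0.0919 to 0.119) in WT C57BL6-BALB/c, against 0.156 (0.142 to 0.171) in WT C57BL6. Insig1 over its paralog Insig2 showed the same order, at 0.209 for Cx43-deleted, 0.223 for WT C57BL6-BALB/c and a higher 0.333 for WT C57BL6. These pairs were chosen after values had been seen.

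**Figure D2:**
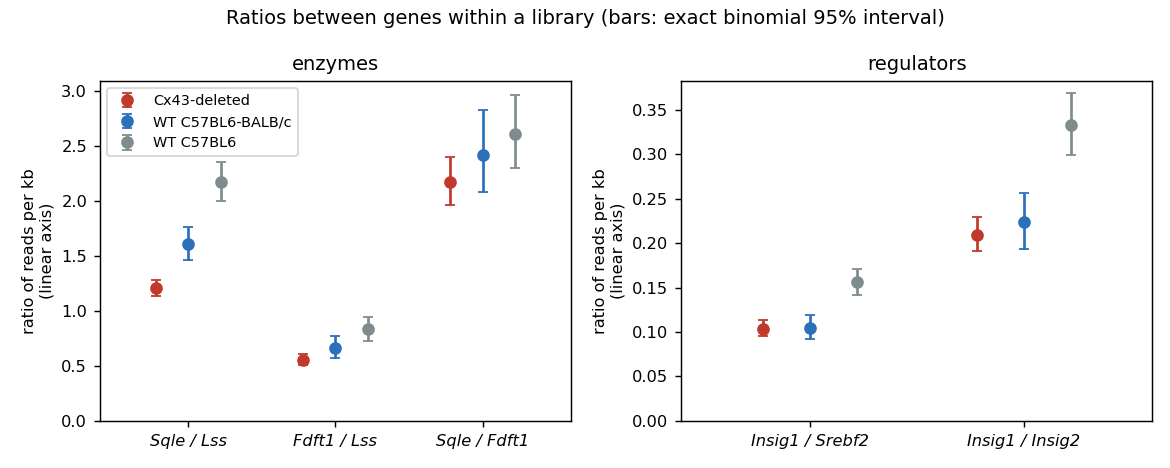
Ratios of reads per kb between sterol genes within a library (linear axes from 0), with exact binomial 95% intervals, for the libraries in the order of the key. Sqle over Lss was 1.21, 1.61 and 2.17, and Insig1 over Srebf2 was 0.104, 0.105 and 0.156.

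The coverage of the transcripts differed between genes. Srebf2 had 0, 1 and 20 of 4989 bases without a read in Cx43-deleted, in WT C57BL6-BALB/c and lastly in WT C57BL6, and the longer Sqle transcript had 2, 10 and 7 of 2727. Lss had 32, 106 and 215 of 4658. Fdft1 lacked reads on 364, 532 and 442 of 1665 bases. Insig1 lacked reads on 1036 of 2692 bases in the Cx43-deleted library, against 980 in WT C57BL6-BALB/c and 718 bases in WT C57BL6, so the deepest library left the most of Insig1 unread. Its values rest on part of the transcript, and the part of uneven coverage in its ratios was not tested.

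Sequences before the start of Lss, Srebf2 and Insig1 are shown because these are the measured members in the RefSeq promoter table, 1 with a higher and 2 with lower levels in the Cx43-deleted library. They are from GRCm38.p6, plus strand, cut at the start of the gene model so that no transcribed base is included. Capitals mark ATTGG, which is CCAAT (the NF-Y box) on the other strand, and CACGTG (the E-box).
Lss, chr10:76531355-76531587: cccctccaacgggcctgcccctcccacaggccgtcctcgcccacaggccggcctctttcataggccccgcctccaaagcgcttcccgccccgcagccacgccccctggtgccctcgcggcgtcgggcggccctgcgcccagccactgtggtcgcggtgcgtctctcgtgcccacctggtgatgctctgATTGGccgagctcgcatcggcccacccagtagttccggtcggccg
Srebf2, chr15:82147019-82147180: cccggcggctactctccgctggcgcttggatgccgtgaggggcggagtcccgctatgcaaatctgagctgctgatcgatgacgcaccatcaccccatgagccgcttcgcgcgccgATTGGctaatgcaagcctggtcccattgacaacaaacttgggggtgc
Insig1, chr5:28071162-28071362: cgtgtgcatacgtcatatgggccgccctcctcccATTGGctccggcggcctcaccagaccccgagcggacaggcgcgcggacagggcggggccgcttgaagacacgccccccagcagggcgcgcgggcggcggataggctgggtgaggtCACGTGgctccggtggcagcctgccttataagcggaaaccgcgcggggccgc

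Each of these stretches held CCAAT once, beginning 45 bases before the gene model in Lss, 47 in Srebf2 and 167 in Insig1, and Insig1 also held CACGTG once, 52 bases before it. In the full 250 bases before the RefSeq start, searched on both strands, CCAAT was found in all 5 listed genes with an entry, Hmgcs1 and Idi1 included, and in 12 of the 13 other synthesis enzymes with an entry, beside 33.8% of 32851 promoters in the table. The letters TCACNCCAC, a form of the sterol regulatory element bound by SREBP, were found in 1 of the 5, Hmgcs1, and in 0 of the 13, beside 1.05% of all promoters. CACGTG was in 1 of the 5 and 3 of the 13, beside 6.02%. A gene was counted if any of its entries held the letters, while the shares are per promoter, so the measures are not quite alike. Dhcr7 had 3 entries, with CCAAT in 1 and CACGTG in 1, and Pmvk had 2 entries, with CCAAT in 1. A match of letters is a description and not a bound site. Other forms of the sterol regulatory element were not searched for, so a promoter without these letters may still hold one.

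The other enzymes of the pathway place these genes in context. Levels from here on are sums over the transcripts of a gene, in which a read on shared sequence appears to count more than once. Folds with an interval and read numbers are from the most abundant transcript. Of 15 other synthesis enzymes on the list, all 15 measured, 9 were lowest in the Cx43-deleted library, 1 was highest there and 5 lay between the WT libraries. With Fdft1, Sqle and Lss it was 11 of 18 below both and 2 above both, beside 35.6% and 33.2% of all genes. The median of the 15 was −0.10 relative to WT C57BL6-BALB/c and −0.54 relative to WT C57BL6. At 1.5-fold, 2 of 15 were lower and 0 higher relative to WT C57BL6-BALB/c, where 4.06% and 3.17% of all genes were. Relative to WT C57BL6, 7 of 15 were lower and 0 higher, where 12.1% and 8.83% of all genes were. Between the WT libraries all 15 were lower in WT C57BL6-BALB/c, with a median of −0.47, where 53.3% of all genes were lower. At 1.5-fold 3 of the 15 were, beside 9.01% of all genes.

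Nsdhl, the X-linked sterol dehydrogenase that works with MSMO1 on C4 demethylation, was the furthest from both. It had 725 reads in the Cx43-deleted library, 639 reads in WT C57BL6-BALB/c and 865 reads in WT C57BL6, with levels of 15.2, 34.8 and 39.2 CPM. It was lower than WT C57BL6-BALB/c by 2.23-fold (2.00 to 2.48) and lower than WT C57BL6 by 2.52-fold (2.28 to 2.78). Of all genes measured, 0.379% were at least 2-fold below both WT libraries. Its reads per kb set against those of Ebp, the sterol isomerase, were 0.637 (0.577 to 0.703) in the Cx43-deleted library, 1.31 (1.15 to 1.49) in WT C57BL6-BALB/c and 1.02 (0.923 to 1.13) in WT C57BL6. This ratio does not depend on library scaling, and the Cx43-deleted interval lay below both others. The pair was chosen after values had been seen, with Nsdhl taken as the furthest gene of its list, so the ratio is not separate evidence.

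Sc5d, lathosterol oxidase near the end of the pathway, was next, at 18.6 CPM in the Cx43-deleted library, against 28.4 CPM in WT C57BL6-BALB/c and 39.6 CPM in WT C57BL6. It was 1.53-fold (1.38 to 1.69) and 2.13-fold (1.95 to 2.33) lower than in these WT libraries. Hsd17b7, the 3-ketosteroid reductase, was at 19.0 CPM in the Cx43-deleted library, against 23.2 CPM in WT C57BL6-BALB/c and 33.0 CPM in WT C57BL6. Tm7sf2, a sterol C14-reductase, was the enzyme above both, at 69.9 CPM in the Cx43-deleted library, against 59.9 CPM in WT C57BL6-BALB/c and 64.1 CPM in WT C57BL6; 12.1% of its exon bases overlap Vps51. The enzymes of the mevalonate steps Acat2, Mvk and Mvd lay between the WT libraries, with log2 ratios of 0.20, 0.30 and 0.24 against WT C57BL6-BALB/c and −0.30, −0.32 and −0.54 against WT C57BL6. Fdps was at under 3 CPM in each library, and 26.7% of its exon bases overlap Gm43738, which makes its value uncertain.

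**Figure D3:**
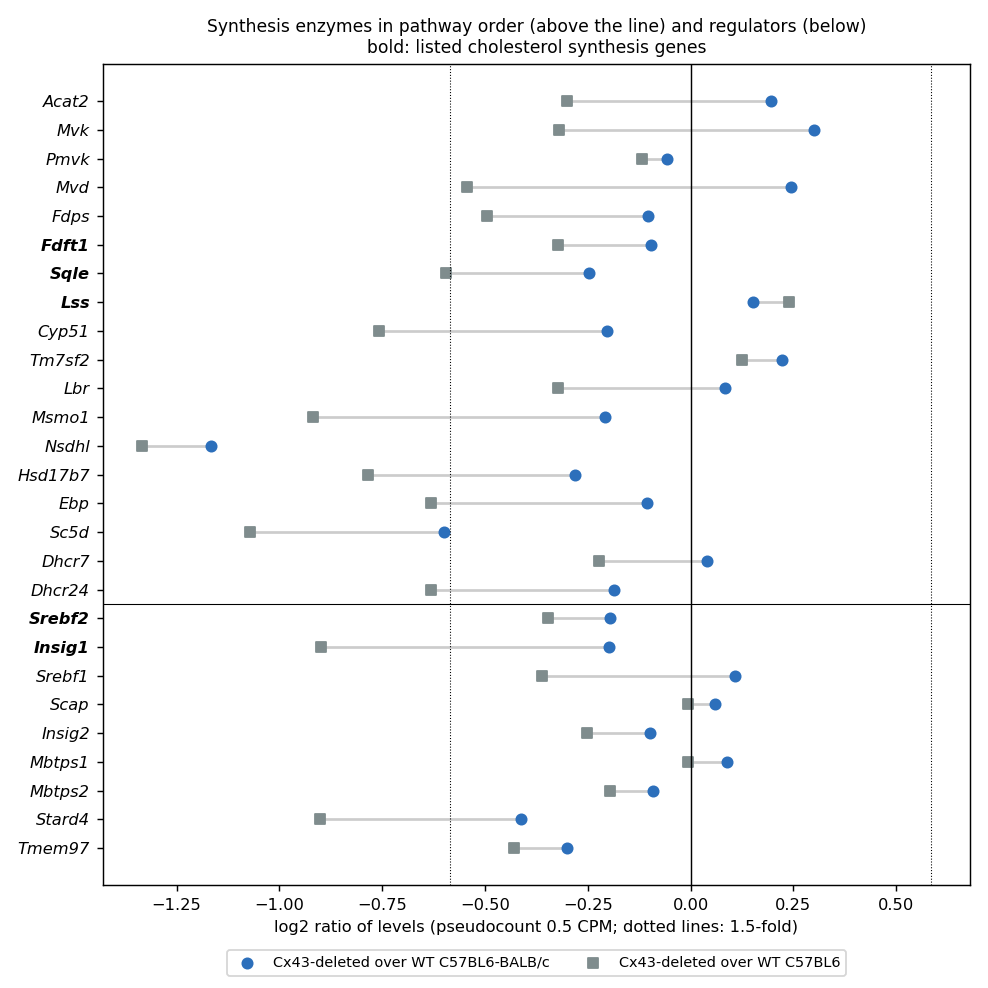
Log2 ratios of the Cx43-deleted library to WT C57BL6-BALB/c (circles) and to WT C57BL6 (squares) for synthesis enzymes in pathway order and for regulators, with the listed genes in bold and 1.5-fold marked by dotted lines. Nsdhl lay furthest to the left against both, at −1.17 and −1.33, and Lss and Tm7sf2 were the enzymes to the right of 0 against both.

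Among 7 genes that regulate or respond to SREBP, 4 were lowest and 0 highest in the Cx43-deleted library, beside 35.6% and 33.2% of all genes. The medians of the 7 were −0.09 relative to WT C57BL6-BALB/c and −0.25 relative to WT C57BL6. Stard4, a cytosolic sterol carrier and SREBP2 target, was at 37.1 CPM in the Cx43-deleted library, against 49.6 CPM in WT C57BL6-BALB/c and 69.7 CPM in WT C57BL6. Its log2 ratios were −0.41 and −0.90. It was the 1 gene of these 7 at least 1.5-fold lower than in WT C57BL6, where 12.1% of all genes were. Tmem97, a sterol-regulated membrane protein, was at 1.36 CPM (73 reads) in the Cx43-deleted library, against 1.79 CPM (38 reads) in WT C57BL6-BALB/c and 2.01 CPM (51 reads) in WT C57BL6. Insig2 was at 60.7 CPM in the Cx43-deleted library, against 65.0 CPM in WT C57BL6-BALB/c and 72.4 CPM in WT C57BL6. Scap and the protease genes Mbtps1 and Mbtps2, which release SREBP, had log2 ratios between −0.20 and 0.09 against the WT libraries.

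Of 15 uptake, efflux and turnover genes, 7 were highest and 6 lowest in the Cx43-deleted library, beside 33.2% and 35.6% of all genes. The medians of the 15 were 0.15 relative to WT C57BL6-BALB/c and −0.07 relative to WT C57BL6. None of the 15 was 1.5-fold from WT C57BL6-BALB/c, where 4.06% of all genes were lower and 3.17% higher. Relative to WT C57BL6, 2 were 1.5-fold lower, where 12.1% of all genes were, and 1 was higher, where 8.83% were. The lower ones were Npc2, which moves cholesterol out of lysosomes, at −0.80 on the log2 scale, and Scarb1, a lipoprotein receptor, at −0.59. The higher one was Abcg4, a sterol exporter, at 0.77. WT C57BL6-BALB/c differed from WT C57BL6 in the same direction, by −0.76 for Npc2, −0.57 for Scarb1 and 0.59 for Abcg4. By the most abundant transcript alone, 6 of the 15 were highest and 6 lowest in the Cx43-deleted library. The lipoprotein receptor gene Lrp8 was at 880 CPM in the Cx43-deleted library, against 765 CPM in WT C57BL6-BALB/c and 606 CPM in WT C57BL6. Vldlr, a related receptor, was at 53.8 CPM in the Cx43-deleted library, against 46.7 CPM in WT C57BL6-BALB/c and 42.5 CPM in WT C57BL6. Both were highest in the Cx43-deleted library. Cyp46a1, the 24-hydroxylase by which neurons clear cholesterol, was at 314 CPM in the Cx43-deleted library, against 268 CPM in WT C57BL6-BALB/c and 219 CPM in WT C57BL6. Abcg1, a sterol exporter, was at 41.3 CPM in the Cx43-deleted library, against 50.3 CPM in WT C57BL6-BALB/c and 50.7 CPM in WT C57BL6. Abca1, another exporter, was at 83.9 CPM in the Cx43-deleted library, against 89.5 CPM in WT C57BL6-BALB/c and 116 CPM in WT C57BL6. Both exporters were lowest in the Cx43-deleted library. Soat1, which esterifies cholesterol, was at 24.5 CPM in the Cx43-deleted library, against 26.1 CPM in WT C57BL6-BALB/c and 25.8 CPM in WT C57BL6.

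Of 13 fatty acid synthesis genes, the other arm of SREBP control, 6 were lowest and 2 highest in the Cx43-deleted library, beside 35.6% and 33.2% of all genes. The medians of the 13 were −0.0044 relative to WT C57BL6-BALB/c and −0.21 relative to WT C57BL6. At 1.5-fold, 1 was higher and 0 lower relative to WT C57BL6-BALB/c, beside 3.17% and 4.06% of all genes, and 0 were higher and 2 lower relative to WT C57BL6, beside 8.83% and 12.1%. The higher one was Thrsp, a lipogenic regulator, at 10.6 CPM in the Cx43-deleted library, against 5.47 CPM in WT C57BL6-BALB/c and 11.1 CPM in WT C57BL6. Its difference from WT C57BL6-BALB/c was 1.93-fold (1.58 to 2.38), and it lay close to WT C57BL6, at −0.06 on the log2 scale. The stearoyl-CoA desaturases Scd2 and Scd1 were those lower than in WT C57BL6, by log2 ratios of −0.68 and −0.61. Scd2 was at 613 CPM in the Cx43-deleted library, against 720.1 CPM in WT C57BL6-BALB/c and 979 CPM in WT C57BL6. Elovl5 and Fads2, of polyunsaturated fatty acid synthesis, lay −0.18 and −0.17 on the log2 scale from whichever WT library was nearer, and Acss2, an acetyl-CoA synthetase, lay 0.25 above it. Elovl6 was the other gene above both, by 0.01. The isoprenoid branch, which draws on the same precursors for ubiquinone, dolichol and prenylation, had 8 genes listed and 7 measured. Of these, 5 were highest and 0 lowest in the Cx43-deleted library, beside 33.2% and 35.6% of all genes. The medians of the 7 were 0.19 and 0.10. Pdss1, of ubiquinone synthesis, was at 105 CPM in the Cx43-deleted library, against 83.9 CPM in WT C57BL6-BALB/c and 73.6 CPM in WT C57BL6. Fntb lay 0.30 above the nearer of the WT libraries on the log2 scale. Coq2 lay 0.13 above it by summed transcripts, but its most abundant transcript was at 36.3 CPM in the Cx43-deleted library, against 29.8 CPM in WT C57BL6-BALB/c and 40.4 CPM in WT C57BL6, a ratio of 0.899 (0.833 to 0.970) to WT C57BL6. By that measure 4 of the 7 genes were highest in the Cx43-deleted library.

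Markers of several cell types differed between the libraries alongside the sterol genes. Against WT C57BL6, 14 of 15 endothelial markers were lower in the Cx43-deleted library, where 8788 of 16604 genes were. The median of the 15 was −0.98, and their summed levels were 10275 CPM against 14920 CPM. The other WT library, WT C57BL6-BALB/c, was at 9481 CPM. All 15 markers were below WT C57BL6 there, as were 53.3% of all genes, and the median of the 15 was −0.69. In the comparison with WT C57BL6-BALB/c, 10 of 15 endothelial markers were lower in the Cx43-deleted library, where 8212 of 16604 genes were. The median of the 15 was −0.15, yet their sum was higher in the Cx43-deleted library, so sum and median point opposite ways. The highest endothelial marker was at 2828 CPM in the Cx43-deleted library and 1653 CPM in WT C57BL6-BALB/c, so the sums depend strongly on 1 marker. Of 15 astrocyte markers, 9 were lowest in the Cx43-deleted library, where 35.6% of all genes were, and the medians of the 15 were −0.14 and −0.33. Their summed levels were 3263, 3626 and 3939 CPM in Cx43-deleted, in WT C57BL6-BALB/c and lastly in WT C57BL6. The count and sums include Gja1, the deleted gene, at 48.0, 202 and 202 CPM, so part of the difference was set by the design. No count or sum without Gja1 was made.

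Of 15 oligodendrocyte markers, 10 lay below both WT libraries, as did 35.6% of all genes, and the medians of the 15 were −0.06 and −0.28. Neuron markers had medians of −0.13 and 0.21, with 7 of 15 below both, and pericyte markers of −0.03 and −0.71, with 5 of 10 below both. The medians of smooth muscle markers were −0.84 and −0.42, and 9 of 10 lay below both. Those of microglia markers were 0.02 and −0.54, and 4 of 10 lay below both. All 8 choroid plexus markers were above WT C57BL6-BALB/c and below WT C57BL6, with medians of 0.37 and −0.81. Of all 16604 genes, 5180 were neither above both nor below both WT libraries. Of 8 fibroblast markers 7 lay below both, of 5 red blood cell genes 5, and of 10 immediate early genes 10, the last with medians of −1.39 and −1.62. No marker on any of these lists was at 0 in any library. The part of cell composition in the sterol gene differences was not tested.

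**Figure D4:**
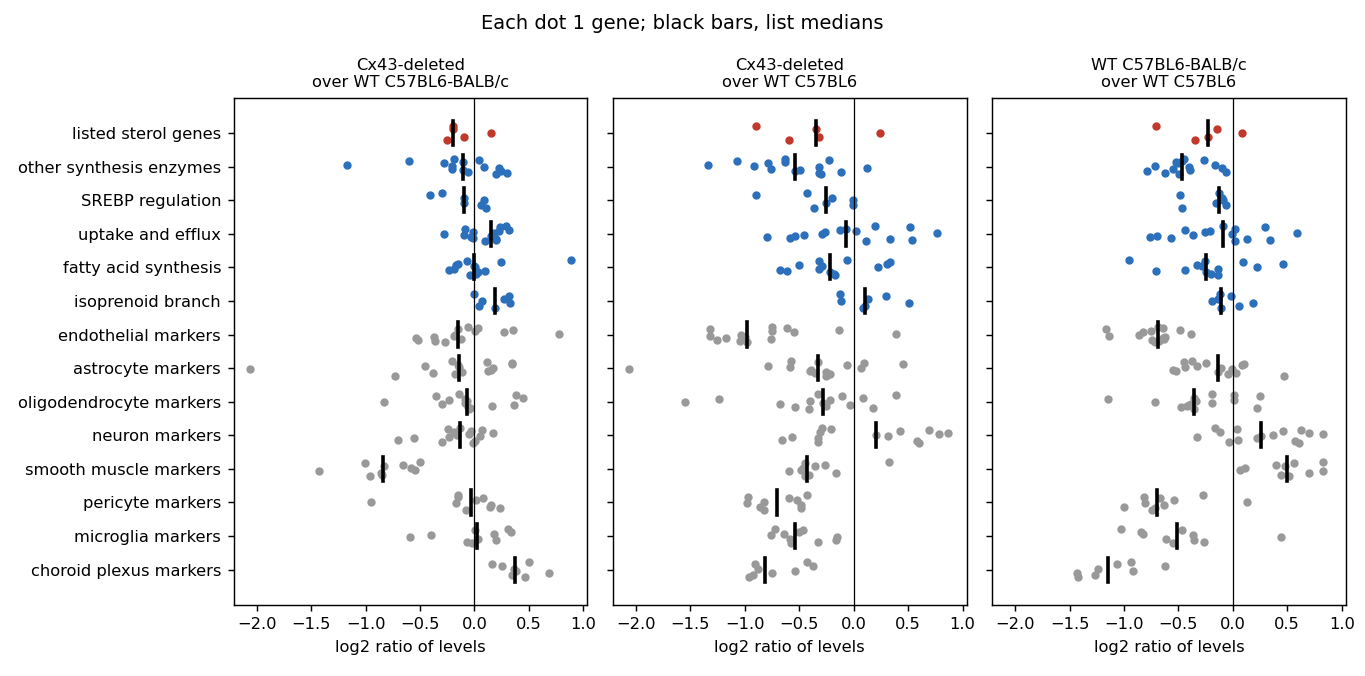
Log2 ratios of levels for single genes (dots) and list medians (black bars) in the comparisons of the Cx43-deleted library with each WT library and of WT C57BL6-BALB/c with WT C57BL6. The listed sterol genes had medians of −0.20, −0.35 and −0.23, and the endothelial markers −0.15, −0.98 and −0.69.

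Among 12933 genes at 5 CPM or more in every library, those nearest to the median pair of log2 ratios of the members (−0.20 and −0.35), by Euclidean distance over these 2 ratios, were Eno4, Cs, Tmem33, Pigp and Efcab14, all within 0.0079. As near as the furthest member, Lss at 0.682, lay 8995 other genes, or 69.6%.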

How the data were processed

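RNA-seq of brain vessels was analysed in 3 libraries, grouped by the labels. The authors deposited a whole-number read count for each of 82813 Ensembl transcripts, not normalised, and that count divided by the library total, as a fraction, per the file headers. The other deposited values used are transcript length and bases without a read. The submitters' processing notes list CASAVA 1.8.2, Bowtie and mm10. Not given in the sources used here are the counting program, the annotation release and how multi-mapping reads were treated. Deposited coordinates were not used.

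GENCODE M21 (GRCm38) gave gene names: 69379 identifiers matched (83.8%), of which 217 on another chromosome were left out, and 13434 did not. The counts add up to more than the library totals, 2.55 times in Cx43-deleted, 2.53 times in WT C57BL6-BALB/c and 2.45 times in WT C57BL6. A read thus appears to count on more than 1 transcript. The parts of shared sequence and of multi-mapping reads in this excess were not tested. Gene counts were sums over transcripts, divided by the library total times a trimmed mean of M values (TMM) factor of 0.976, 1.00 and 1.02. Log2 ratios used a pseudocount of 0.5, which understates low genes. Of 29787 genes, 16604 reached 1 CPM in some library and were kept. Folds and 95% intervals came from reads of the most abundant transcript (exact binomial; exact Poisson for levels). One count was worth 0.0186, 0.0472 and 0.0394 CPM.

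With 1 library per group no test was possible, and a gene was called at 1.5-fold. The members, lists and rules were chosen with earlier results of these data known. Named in each companion list were up to 3 genes furthest beyond both WT libraries on each side and any at 2-fold; other genes were named after values were seen. Python 3.11.15 with numpy 2.4.6, pandas 2.3.3 and scipy 1.17.1 was used, and the steps were tested on simulated data. The promoter table had no entry for Sqle and Fdft1.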

Additional observations from a re-analysis of the deposited data

How the results depend on the processing

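Scaling by library totals or median-of-ratios, pseudocounts of 0.1 and 1, the most abundant transcript alone, a minimum level of 5 and no filter were tried, along with a call at 2-fold. Under these no member or other synthesis enzyme changed sign in any comparison, and 1 gene stayed above both WT libraries and 4 below both. The median of the sterol genes against WT C57BL6 was −0.41 with library totals, under which the median of all genes was −0.10. The number of sterol genes called lower than in WT C57BL6 was 1 with median-of-ratios scaling, for which no share of all genes is given. At 2-fold it was 0, where 484 of 16604 genes were lower. Between the WT libraries the number of sterol genes called lower was 0 at 2-fold, where 347 of 16604 genes were. Of the 15 other synthesis enzymes, 2 were called lower than in WT C57BL6 at 2-fold, beside 484 of 16604 genes. The median of the 15 was −0.61 with library totals. No paired analysis was possible because each group has 1 library. The intervals of Fdft1 and Insig1 against WT C57BL6-BALB/c include no difference, and the part of depth in this was not tested.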
